A study of Mus musculus with 24 samples.

Results

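The miR-26 family was examined in small RNA sequencing of the neonatal mouse brain. Its 4 members here were chosen by name, as the rows mmu-miR-26a-5p, mmu-miR-26b-5p, mmu-miR-26a-2-3p, and mmu-miR-26b-3p of the count tables (written without the mouse prefix from here on), and made up 4 of the 1531 mouse miRNAs listed. The tables held 1 other miR-26 row, miR-26a-1-3p, which is not a member and is described only where it bears on the others. The libraries came from CD1 pups of both sexes at postnatal day 9. In 4 pups with hypoxic-ischemic brain injury (HIBI; pups 1, 4, 5, and 7) the right common carotid artery was cauterized, and after 2 h of recovery the pups breathed 8% oxygen for 30 min. The 4 sham pups (pups 2, 3, 6, and 8) had the same anesthesia and neck dissection, with no ligation and no hypoxia. Tissue was collected 30 min after the injury, and the right cerebellum, striatum/thalamus, and cortex of each of the 8 pups gave 24 libraries, each from 200 ng of RNA. No group had hypoxia alone, and the cerebellum is hypoxic but not ischemic in this model.

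Each miRNA hairpin yields a 5p and a 3p arm. One of them, the guide, is loaded into an Argonaute protein and pairs with target mRNAs mainly through its seed, and the other, the passenger arm, is mostly degraded. The miR-26 hairpins lie in introns of the genes for the small C-terminal domain phosphatases Ctdsp1, Ctdsp2, and Ctdspl. These phosphatases act with the repressor REST, which keeps neuronal genes silent outside neurons, and miR-26 targets the phosphatase mRNAs themselves as neurons differentiate. The family is therefore known as part of a circuit in the developing brain.

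The mature sequences are shown because they set which arms share targets and which reads could be told apart. They were taken from RefSeq on GRCm38.p6 and run 5′ to 3′, with the seed, bases 2 to 8, in capitals.
miR-26a-5p: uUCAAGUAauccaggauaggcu
miR-26b-5p: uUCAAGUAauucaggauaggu
miR-26a-2-3p: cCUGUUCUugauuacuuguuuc
miR-26b-3p: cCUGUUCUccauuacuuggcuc
miR-26a-1-3p: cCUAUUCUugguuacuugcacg

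Both 5p arms carry the seed UCAAGUA, and no other of the 1291 mouse entries with a sequence carried it. Counted from 1 at the 5′ end, miR-26b-5p differed from miR-26a-5p by C11U and C21U, both outside the seed, and was 21 bases long against 22. The passenger arms miR-26a-2-3p and miR-26b-3p share the seed CUGUUCU and differed by U9C, G10C, U19G, and U20C. The seed CUGUUCU also occurred in miR-6932-3p and miR-7039-3p, which held 34 and 31 counts over the 24 libraries. Relative to miR-26a-2-3p, miR-26a-1-3p differed by G4A, A11G, U19C, U20A, U21C, and C22G, the first of which falls in the seed.

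The hairpins follow with both arms in capitals, because they show that miR-26a-5p has 2 sources and each passenger arm only 1.
Mir26a-1: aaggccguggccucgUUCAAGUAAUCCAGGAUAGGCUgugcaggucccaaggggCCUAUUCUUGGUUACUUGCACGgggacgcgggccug
Mir26a-2: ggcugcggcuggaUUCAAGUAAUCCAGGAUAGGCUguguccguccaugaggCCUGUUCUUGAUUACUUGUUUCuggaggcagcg
Mir26b: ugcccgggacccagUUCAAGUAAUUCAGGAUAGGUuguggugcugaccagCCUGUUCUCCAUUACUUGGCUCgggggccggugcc

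Mir26a-1 lies at chr9:119031796-119031885 on GRCm38, on the plus strand, in intron 4 or 5 of Ctdspl depending on the transcript. Mir26a-2 lies at chr10:126995530-126995613, plus strand, in intron 5 of Ctdsp2. Mir26b lies at chr1:74394310-74394394, plus strand, in intron 4 of Ctdsp1. None of the 3 hairpins overlapped an exon of its host gene in the annotation, and each is on the strand of that gene. The mature miR-26a-5p is identical from Mir26a-1 and Mir26a-2, so its counts cannot be divided between chromosomes 9 and 10.

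Between 1254185 and 3406624 reads per library were counted on mouse miRNAs. Levels are given as CPM, counts relative to library size after trimmed-mean (TMM) scaling over the 24 libraries, and as the mature sequences are 21 or 22 bases long, no length scaling was applied. The brain markers miR-9-5p, miR-124-3p, and miR-128-3p were abundant in every library, at 65490 to 249400 CPM summed. The 2 hindbrain markers miR-10a-5p and miR-10b-5p summed to 471.7 to 1926 CPM in the cerebellum and to 42.3 to 283.1 CPM in the other regions. Libraries also differed in how counts followed the GC content of the mature sequence. The slope of log2 level on GC, per 10 points of GC over 371 miRNAs, ran from -0.45 to 0.12 in cerebellar libraries, from -0.19 to 0.13 in cortical ones, and from -0.12 to 0.51 in the striatum/thalamus. The 5p members have a low GC content, 40.9% in miR-26a-5p and 33.3% in miR-26b-5p, and the passenger arms hold 36.4% (miR-26a-2-3p) and 50% (miR-26b-3p).

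MiR-26a-5p was nearly the whole family in these libraries. It made up 99.6% ± 0.11 (SD, n = 8) of the miR-26 counts in the cerebellum, 99.7% ± 0.076 in striatum/thalamus, and 99.7% ± 0.021 in cortex. It ranked 6th, 10th, and 6th of 1531 miRNAs in those regions and took 4.75%, 2.31%, and 4.13% of all counts on average. The other 5p arm, miR-26b-5p, with the same seed, made up 0.316% ± 0.10, 0.231% ± 0.061, and 0.221% ± 0.023 of the miR-26 counts, and ranked 203rd, 261st, and 225th. How reads that match both 5p arms with a mismatch were counted is not given in the sources used here.

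The level of miR-26a-5p was 47940 ± 15370 CPM (SD, n = 8 pups) in the cerebellum, 45140 ± 6873 CPM in the cortex, and 21800 ± 7061 CPM in the striatum/thalamus. MiR-26b-5p followed with 152.3 ± 67.3, 99.1 ± 13.4, and 53.3 ± 29.9 CPM in the same order of regions. The passenger arm of Mir26a-2, miR-26a-2-3p, was at 24.3 ± 11.2, 10.7 ± 5.86, and 6.18 ± 5.84 CPM, and miR-26b-3p at 10.1 ± 3.97, 4.78 ± 2.29, and 3.69 ± 2.17 CPM. All 4 members thus had their highest mean in the cerebellum and their lowest in the striatum/thalamus, and for miR-26a-5p the cerebellum and cortex differed by less than their SD. The passenger arms rest on few reads, with 1 to 91 counts of miR-26a-2-3p and 2 to 33 of miR-26b-3p per library. MiR-26a-1-3p had 77 counts in all 24 libraries together and none in 9 of them, where a count of 0 allows up to 1.26 to 2.36 CPM by counting error alone.

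**Figure D1:**
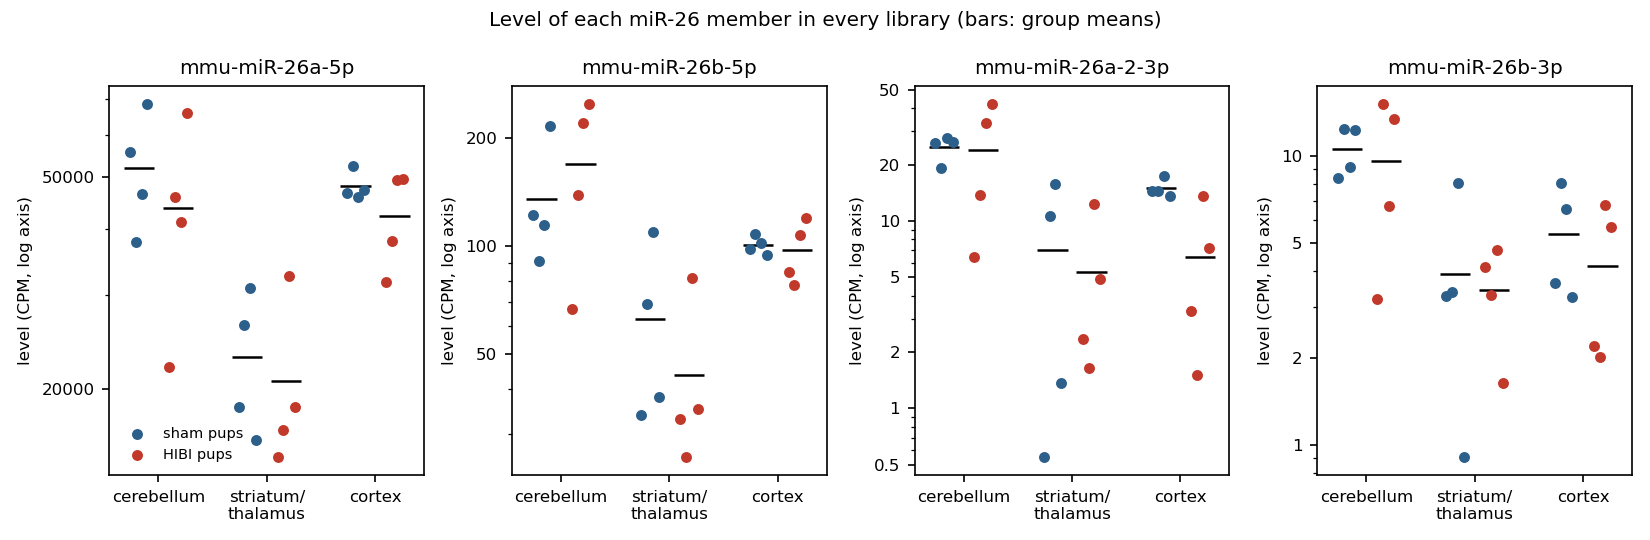
Level of each miR-26 member (CPM, log axis) in every library, by region, with sham pups in blue and HIBI pups in red, 4 pups each, and bars at the group means. The groups overlap in each region for each member, and the striatum/thalamus is lowest on average, at 21800 CPM for miR-26a-5p.

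The injury comparison asks whether the family had changed 30 min after HIBI. No member above the level minimum was called in any region, and HIBI and sham levels overlapped for each of the 4 in each of the 3 regions. A miRNA was called with a Benjamini-Hochberg adjusted p under 0.05 in edgeR's quasi-likelihood test over the miRNAs with an average above 10 CPM, and a second rule took a fold change above 1.5 with an unadjusted p under 0.05. All 4 members passed the CPM minimum in the cerebellum, and the 2 5p members did so in the striatum/thalamus and cortex. The minimum was applied to CPM from the library total alone, before TMM scaling. Few miRNAs of any kind were called. In the cerebellum the first rule called 0% of 434 miRNAs (44 at an unadjusted p under 0.05) and the second 7.83%, and the groups did not overlap for 3.46%. In the striatum/thalamus these shares were 0% (14 at an unadjusted p under 0.05), 2.75%, and 1.38% of 436, and in the cortex 0.244%, 3.41%, and 6.59% of 410. DESeq2 called no member in any region either, and its share of calls over all miRNAs was not recorded.

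In the cerebellum miR-26a-5p was at 21940, 45890, 41150, and 66080 CPM in HIBI pups 1, 4, 5, and 7, and at 55670, 37700, 46380, and 68700 CPM in sham pups 2, 3, 6, and 8. The lowest value came from HIBI pup 1, the library with the fewest counts, and the other 3 HIBI values lay within the sham range. The log2 fold change was -0.24 (SE 0.29, adjusted p = 0.675, edgeR), with a 95% interval of -0.87 to 0.39. For miR-26b-5p the cerebellar levels were 67.1, 139.1, 220.4, and 249.1 CPM in HIBI and 121.9, 90.7, 114.2, and 215.9 CPM in sham pups, in the same order of pups. Pup 1 was again the lowest and pups 5 and 7 exceeded every sham pup, and the log2 fold change was 0.34 (SE 0.39, adjusted p = 0.658, edgeR; 95% interval -0.50 to 1.18). MiR-26a-2-3p in the cerebellum ranged from 6.39 to 42.2 CPM in HIBI and from 19.2 to 27.6 CPM in sham pups, with a log2 fold change of -0.019 (SE 0.48). MiR-26b-3p ranged from 3.20 to 15.2 CPM in HIBI and from 8.40 to 12.4 CPM in sham pups, with a log2 fold change of -0.12 (SE 0.45). For both passenger arms the HIBI values enclosed the sham values on either side.

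In the striatum/thalamus, which is within the ischemic territory, miR-26a-5p was at 14860, 16720, 32540, and 18510 CPM in HIBI pups 1, 4, 5, and 7 and at 18450, 26390, 30920, and 16020 CPM in sham pups 2, 3, 6, and 8. The high values belonged to pups of either group, pup 5 with HIBI and pups 3 and 6 of the sham group, and the log2 fold change was -0.11 (SE 0.25, adjusted p = 0.980, edgeR; 95% interval -0.66 to 0.44). MiR-26b-5p was at 33.0, 25.9, 81.5, and 35.3 CPM in HIBI and at 34.0, 69.0, 109.2, and 38.1 CPM in sham pups. The same 3 pups were the high ones, and they are the pups whose striatum/thalamus libraries had the lowest GC slopes, -0.12 in pup 5, 0.058 in pup 3, and -0.094 in pup 6, against 0.29 to 0.51 in the other 5. The log2 fold change of miR-26b-5p was -0.46 (SE 0.42, adjusted p = 0.980, edgeR; 95% interval -1.39 to 0.47). Before TMM scaling the passenger arms averaged 6.28 and 3.90 CPM, under the minimum. In a fit that kept them beside the other miRNAs, their log2 fold changes were -0.33 (SE 0.88) for miR-26a-2-3p and -0.11 (SE 0.69) for miR-26b-3p.

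In the cortex the sham pups lay close together. MiR-26a-5p was at 31780, 37900, 49370, and 49650 CPM in HIBI pups 1, 4, 5, and 7 and at 46740, 52500, 45960, and 47180 CPM in sham pups 2, 3, 6, and 8. Pups 1 and 4 were below every sham pup and pups 5 and 7 within the sham range, and the log2 fold change was -0.071 (SE 0.15, adjusted p = 0.990, edgeR; 95% interval -0.41 to 0.26). MiR-26b-5p was at 84.9, 78.0, 107.4, and 119.8 CPM in HIBI and at 97.99, 107.8, 102.3, and 94.7 CPM in sham pups, with a log2 fold change of 0.074 (SE 0.18, adjusted p = 0.990, edgeR; 95% interval -0.32 to 0.47). These were the narrowest intervals of the family.

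The largest injury difference among the members was that of miR-26a-2-3p in the cortex. Its average there was 9.58 CPM before TMM scaling, just under the minimum, and 10.7 CPM after scaling. Its levels were 3.31, 1.51, 13.6, and 7.18 CPM in HIBI pups 1, 4, 5, and 7, from 6, 3, 38, and 19 counts. In sham pups 2, 3, 6, and 8 they were 14.5, 14.4, 17.4, and 13.5 CPM, from 28, 41, 53, and 29 counts. Pups 1, 4, and 7 were below every sham pup, and pup 5 lay just above the lowest sham pup. Kept beside the 410 miRNAs above the minimum, its log2 fold change was -1.07 (SE 0.48; 95% interval -2.11 to -0.028), with an unadjusted p of 0.0450 and an adjusted p of 0.909 in edgeR's test. It thus met both thresholds of the second rule, a 2.10-fold lower level with an unadjusted p under 0.05, and was left out of that rule's count by the CPM minimum alone, but it did not pass the first rule. The GC slopes of the cortex libraries of pups 1 and 4 were 0.13 and 0.093, against -0.19 to -0.044 in the other 6. With the GC trend of each library removed, the log2 fold change was -1.06 (SE 0.44) and the adjusted p 0.768. MiR-26b-3p in the cortex had a log2 fold change of -0.23 (SE 0.48).

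**Figure D2:**
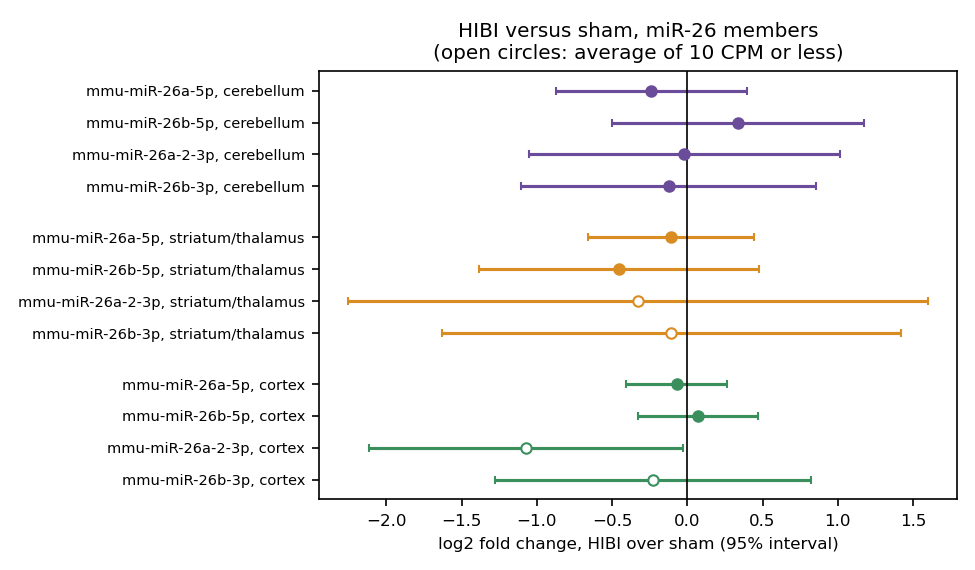
Log2 fold change of HIBI over sham with its 95% interval (edgeR, 4 against 4 pups) for each member in each region. Open circles mark members averaging 10 CPM or less before TMM scaling. Each interval crosses 0 apart from that of miR-26a-2-3p in the cortex, -2.11 to -0.028, whose adjusted p was 0.909.

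Because the cerebellum is spared ischemia, the study sets it against the other regions. The difference itself, with the effect in the cerebellum taken from the mean of the effects in the cortex and striatum/thalamus, was tested over all 24 libraries. It was called for none of the 3 members above the minimum and for 0% of 435 miRNAs (70 at an unadjusted p under 0.05). The log2 difference was 0.22 (SE 0.33) for miR-26a-5p, -0.45 (SE 0.46) for miR-26b-5p, and -0.62 (SE 0.80) for miR-26a-2-3p, with adjusted p of 0.742, 0.613, and 0.693 by edgeR. MiR-26b-3p, kept below the minimum, had -0.0054 (SE 0.54).

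The clearest differences of the family were between regions. In sham pups each of the 3 members above the minimum was lower in the striatum/thalamus than in the cerebellum. MiR-26a-5p was lower by 2.16-fold (log2 -1.11, SE 0.19, adjusted p = 0.000116, edgeR), miR-26b-5p by 2.10-fold (log2 -1.07, SE 0.31, adjusted p = 0.00620), and miR-26a-2-3p by 3.44-fold (log2 -1.78, SE 0.55, adjusted p = 0.0100). Kept below the minimum, miR-26b-3p had a log2 fold change of -1.38 (SE 0.50). Regions differed widely in this series, and 65.2% of 423 miRNAs were called in the same comparison, with 144 higher and 132 lower in the striatum/thalamus. MiR-26a-2-3p averaged 24.8 CPM in the sham cerebellum, 15.0 CPM in the cortex, and 7.04 CPM in the striatum/thalamus. It thus passed the minimum through the regions where it was high, and its call is given as description only. Without sham pup 8, the calls of miR-26b-5p (log2 -0.54, adjusted p = 0.187, edgeR) and miR-26a-2-3p (log2 -1.35, adjusted p = 0.0812) were lost and that of miR-26a-5p was kept.

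The HIBI pups gave the same comparison in 4 other animals. There miR-26a-5p was lower in the striatum/thalamus by 2.06-fold (log2 -1.04, SE 0.31, adjusted p = 0.0132, edgeR), miR-26b-5p by 3.77-fold (log2 -1.91, SE 0.42, adjusted p = 0.00168), and miR-26a-2-3p by 4.38-fold (log2 -2.13, SE 0.73, adjusted p = 0.0250). The call rate over all miRNAs was 49.6% of 446. In these pups miR-26a-2-3p averaged 23.9 CPM in the cerebellum, 6.39 CPM in the cortex, and 5.31 CPM in the striatum/thalamus. It passed the minimum through the cerebellum alone, so its call is again description only. MiR-26b-3p, kept below the minimum, had a log2 fold change of -1.42 (SE 0.57, adjusted p = 0.0510). Its edgeR adjusted p was under 0.05 with scaling without the members (0.0465), the likelihood ratio test (0.0252), all 24 libraries (0.0461), and without pup 1 (0.0314). With the replicate block (0.0674) or the GC correction (0.0727) it was over 0.05. Pup by pup, miR-26a-5p, miR-26b-5p, and miR-26a-2-3p were lower in the striatum/thalamus in 8 of 8 animals and miR-26b-3p in 7 of 8. Leaving out HIBI pup 4 or 7 ended the calls of miR-26a-5p (log2 -0.98 and -0.70, adjusted p = 0.0802 and 0.157, edgeR) and miR-26a-2-3p (log2 -2.07 and -1.67, adjusted p = 0.0516 and 0.183), and miR-26b-5p stayed called.

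Libraries of these regions also differed in GC slope, which was fitted over miRNAs that include the members. Over the striatum/thalamus and cerebellum of sham pups, the median log2 fold change was -0.39 for the 143 miRNAs in the lowest of 3 bins of GC content, up to 45.5%, and 0.50 for the 106 in the highest. In HIBI pups it was -0.64 and 0.58. All 3 members above the minimum fall in the lowest bin. After a loess trend on GC was removed from each library, the sham differences were -0.87 for miR-26a-5p (adjusted p = 0.000333, edgeR), -0.85 for miR-26b-5p (adjusted p = 0.00450), and -1.63 for miR-26a-2-3p (adjusted p = 0.00768). In HIBI pups miR-26b-5p stayed called at -0.90 (adjusted p = 0.00205), whereas miR-26a-5p was at -0.31 (adjusted p = 0.198) and miR-26a-2-3p at -1.25 (adjusted p = 0.0644). With the correction and the pups as a replicate block, miR-26a-2-3p was called at -1.36 (adjusted p = 0.0158, edgeR) and miR-26a-5p was not (-0.27, adjusted p = 0.195). The correction was chosen after seeing the data. Slope and region vary together, so a regional difference of the members and one tied to GC cannot be told apart.

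The cortex held more miR-26a-5p than the striatum/thalamus. In sham pups it was higher by 1.75-fold (log2 0.81, SE 0.19, adjusted p = 0.00380, edgeR) and in HIBI pups by 1.85-fold (log2 0.89, SE 0.31, adjusted p = 0.0466), and it was higher in 8 of 8 pups. It was the single member called in sham pups, beside 38.5% of all miRNAs, and in HIBI pups, beside 28.7%. MiR-26b-5p had log2 fold changes of 0.45 (SE 0.30) in sham and 1.01 (SE 0.41, adjusted p = 0.0729, edgeR) in HIBI pups. With the pups as a replicate block the HIBI difference of miR-26b-5p was 1.10 with an adjusted p of 0.0124. Leaving out HIBI pup 4 or 7 ended the call of miR-26a-5p (adjusted p = 0.186 and 0.195, edgeR). With the GC trend removed, miR-26a-5p remained called in both groups, at 0.64 (adjusted p = 0.00829, edgeR) and 0.57 (adjusted p = 0.0397).

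Between cortex and cerebellum the 5p members did not pass. In sham pups, where 64.8% of all miRNAs were called, miR-26a-5p had a log2 fold change of -0.30 (SE 0.19, adjusted p = 0.175, edgeR), miR-26b-5p -0.62 (SE 0.30, adjusted p = 0.0829), and miR-26a-2-3p -0.91 (SE 0.52, adjusted p = 0.136). With the GC trend removed, miR-26b-5p passed at -0.63 (adjusted p = 0.0261, edgeR). MiR-26b-3p, below the minimum, had -1.13 (SE 0.47) with an adjusted p of 0.0455 in the fit that kept it. It was kept with the replicate block (0.0364), the GC correction (0.0493), both together (0.0362), and edgeR's likelihood ratio test (0.0169). It was lost with another scaling, another minimum, DESeq2, or all 24 libraries (0.0511 to 0.299), and without sham pup 2, 3, 6, or 8 (0.0763 to 0.212). In HIBI pups, where 30.9% were called, miR-26a-2-3p was lower in the cortex by 3.97-fold (log2 -1.99, SE 0.71, adjusted p = 0.0474, edgeR). That call was lost without pup 1, 4, or 7 (adjusted p = 0.0575, 0.0984, and 0.236, edgeR). It concerns an arm that passed the minimum in HIBI pups through its cerebellar level alone. Without pup 5 only 2 members passed the CPM minimum and none was called. Kept beside the rest there, miR-26a-2-3p had log2 -2.29 and an adjusted p still under 0.05. Its edgeR adjusted p was 0.00197 with the replicate block and 0.0372 with the GC correction, but 0.0514 with RLE, 0.0580 with upper quartile, and 0.0620 with a minimum of 1 CPM.

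**Figure D3:**
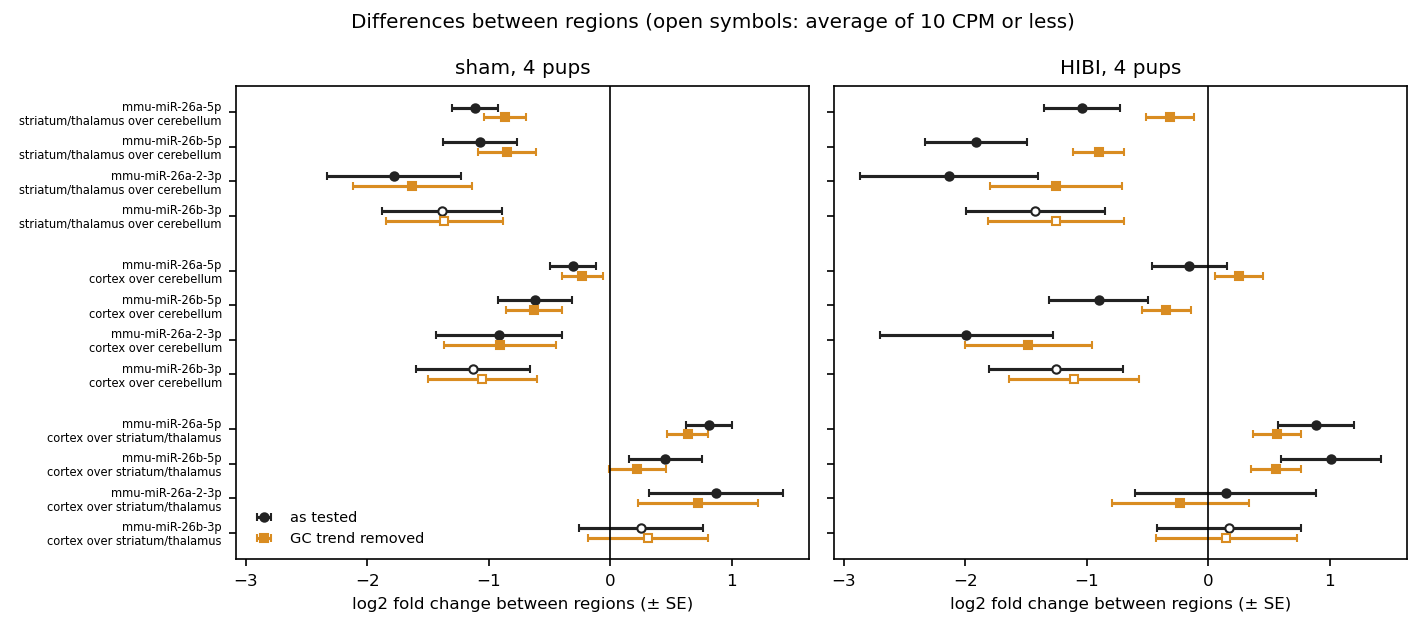
Log2 fold change between regions with its SE, in 4 sham pups (left) and 4 HIBI pups (right), as tested (black circles) and with the GC trend of each library removed (orange squares). In the striatum/thalamus against the cerebellum miR-26a-5p moves from -1.11 to -0.87 in sham pups and from -1.04 to -0.31 in HIBI pups.

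Markers of some other cell types also differed between regions, and their part in the miR-26 differences was not tested. The oligodendrocyte list, 2 of whose 3 miRNAs were in the tables, summed to 4978 to 8013 CPM in the cerebellum and to 804.8 to 4426 CPM in the other regions. Nearly all of that sum was miR-219a-2-3p, with cerebellar means of 6189 (HIBI) and 6265 CPM (sham), against 43.7 and 33.6 CPM for miR-338-3p. The skeletal muscle list (3 of 3 present) summed to 343.2 to 627.1 CPM in the cerebellum and to 30.7 to 149.1 CPM elsewhere. The largest part in the cerebellum was miR-206-3p, with means of 286.6 (HIBI) and 420.1 CPM (sham), against 10.8 and 9.71 CPM for miR-133a-3p. MiR-1a-3p overlapped between regions, at 43.7 to 360.1 CPM in the cerebellum and 16.5 to 97.6 CPM elsewhere. The endothelial list (2 of 2), nearly all of it miR-126a-3p, summed to 808.5 to 3311 CPM in the striatum/thalamus, 2205 to 4310 CPM in the cortex, and 2045 to 4653 CPM in the cerebellum. Ranges overlapped for the erythrocyte list, at 558 to 1266 CPM in the cerebellum and 498.1 to 1155 CPM elsewhere. They also did for the myeloid list (15.2 to 54.3 and 9.43 to 52.0 CPM) and the choroid plexus and ciliated list (2662 to 9861 and 1569 to 4531 CPM). In whole tissue, fewer cells of a type and less RNA per cell cannot be told apart.

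Ratios between members within a library do not depend on the scaling, although members differ in GC content. They were taken as the log2 ratio of counts with 0.5 added to each. The passenger arm miR-26a-2-3p stood lower relative to miR-26a-5p in both other regions than in the cerebellum, in 8 of 8 pups each. Its mean log2 ratio in the cerebellum was -11.0 ± 0.51 (SD, n = 8), compared to -12.3 ± 1.22 for striatum/thalamus and -12.3 ± 1.02 for cortex. The within-pup difference was -1.30 for the striatum/thalamus and -1.29 for the cortex. In both cases the two-sided exact sign-flip test gave p = 0.00781, the smallest possible with 8 pups, and p = 0.0234 after Benjamini-Hochberg adjustment over 9 comparisons. By group, the means in cerebellum, striatum/thalamus, and cortex were -11.05, -12.17, and -13.01 in HIBI pups. In sham pups they were -11.0, -12.48, and -11.64, so cortex and cerebellum lay closer there than in HIBI pups. Whether the regional difference depended on injury was not tested. The ratio also moved with the GC slope of the library, the arms holding 36.4% and 40.9% GC. In the striatum/thalamus it was -11.34, -11.25, and -10.92 in the low-slope pups 5, 3, and 6 and -14.45 to -11.82 in the other 5. In the cortex it was -13.11 and -14.39 in pups 1 and 4, which had the highest slopes, and -12.72 to -11.36 in the other 6. The part of the slope in the regional differences of the ratios was not tested.

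MiR-26b-5p relative to miR-26a-5p was lower in the cortex than in the cerebellum in 8 of 8 pups. The mean log2 ratio was -8.35 ± 0.41 in the cerebellum and -8.82 ± 0.14 in the cortex, a difference of -0.47 (exact p = 0.00781, adjusted p = 0.0234). By group, the cerebellar and cortical means were -8.08 and -8.75 in HIBI pups and -8.63 and -8.90 in sham pups. For striatum/thalamus the ratio was -8.79 ± 0.36, lower than in the cerebellum in 6 of 8 pups (difference -0.43, exact p = 0.0859, adjusted p = 0.193). The unadjusted exact p of that difference was 0.0396 without pairing the pups and 0.0312 without pup 6. MiR-26b-3p relative to its own 5p arm showed no regional difference that passed with 8 pups and 0.5 added, with mean log2 ratios of -3.87 ± 0.68 (cerebellum), -3.80 ± 0.76 (striatum/thalamus), and -4.45 ± 0.54 (cortex; exact p from 0.109 to 0.828). Its unadjusted exact p was 0.0156 for cortex against cerebellum without pup 5 (difference -0.80), and 0.0234 for cortex against striatum/thalamus with 5 added to each count (difference -0.80). The 2 arms of Mir26b were thus much closer in count, with a median of 4.22% to 6.61% of 3p reads per 5p read by region, than the 2 arms read from Mir26a-2. There the median was 0.0212% to 0.0488%, but Mir26a-1 also supplies the same 5p arm.

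None of the 9 ratio comparisons between HIBI and sham reached an exact p under 0.05, and the smallest p that 4 against 4 pups can give is 0.0286. The nearest was miR-26a-2-3p to miR-26a-5p in the cortex, with -13.0 ± 1.07 in HIBI and -11.6 ± 0.20 in sham pups (SD, n = 4 each), a difference of -1.37 (two-sided exact permutation p = 0.0571, adjusted p = 0.386). Without HIBI pup 5, whose ratio was the highest of the HIBI group, the difference was -1.77 and the unadjusted exact permutation p 0.0286, the smallest that 3 against 4 pups can give. Pup 5 was the only HIBI pup that reached the sham range. Leaving it out therefore fixes that p in advance, and no conclusion is drawn from it. The ratio of miR-26b-5p to miR-26a-5p in the cerebellum was -8.08 ± 0.38 in HIBI and -8.63 ± 0.22 in sham pups (difference 0.55, exact permutation p = 0.0857, adjusted p = 0.386). Its highest values, -7.54 and -8.05, were those of HIBI pups 5 and 7, whose cerebellar libraries had the lowest GC slopes.

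**Figure D4:**
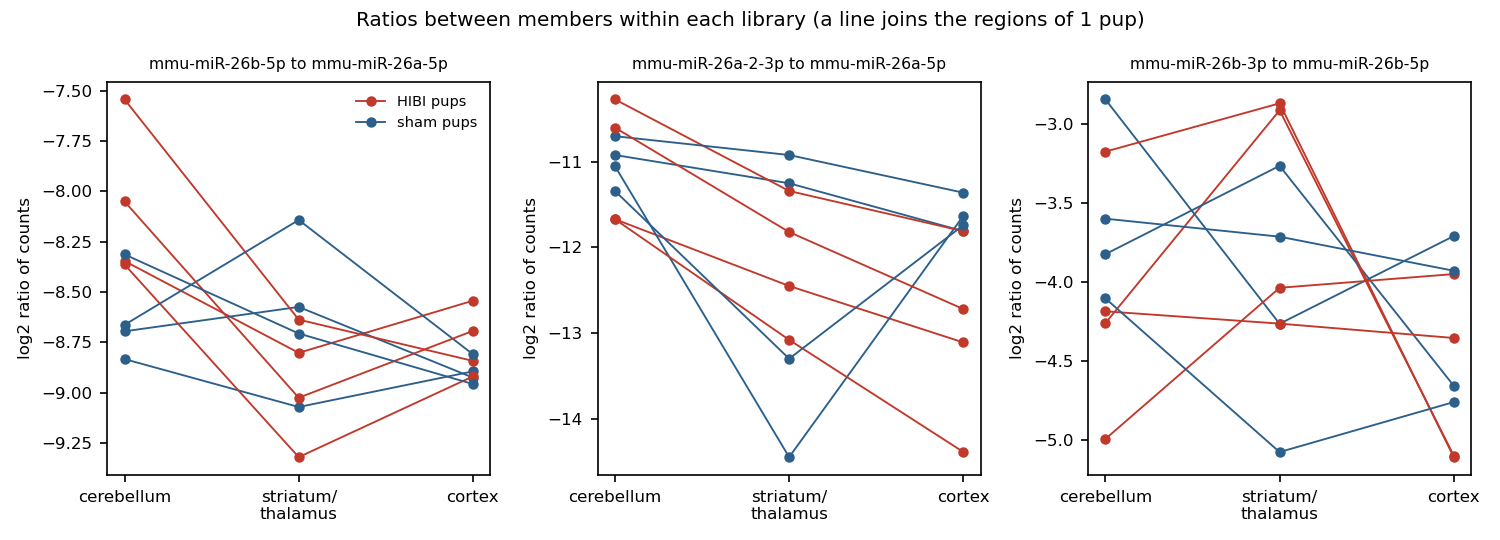
Log2 ratio of counts between 2 members within each library, by region, with a line for each pup (HIBI red, sham blue). The lines of miR-26a-2-3p to miR-26a-5p fall from the cerebellum to both other regions in each of the 8 pups, and those of miR-26b-3p to miR-26b-5p cross.

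The members varied together. Over the 24 libraries the log2 level of miR-26a-5p had a Pearson correlation of 0.91 with miR-26b-5p and 0.79 with miR-26a-2-3p, and miR-26b-5p had 0.85 with miR-26a-2-3p. With the mean of each region and injury group removed, the values were 0.91, 0.79, and 0.87. These 24 points share 8 pups, and they share the GC slope of each library. The deviations of the members from their group means had correlations of -0.85 (miR-26a-5p), -0.93 (miR-26b-5p), and -0.89 (miR-26a-2-3p) with that of the slope.

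Over the 24 libraries and among 435 miRNAs, those closest to miR-26a-5p were miR-181b-5p (Pearson r = 0.96), miR-361-5p (0.94), and let-7i-5p (0.94). Those closest to miR-26b-5p were the brain marker miR-9-5p (0.95), miR-340-3p (0.95), and let-7g-5p (0.94), and those closest to miR-26a-2-3p were miR-199a-3p (0.89), miR-199b-3p (0.89), and let-7f-5p (0.87). Their GC content was 31.8% to 45.8%. With group means removed, the nearest were miR-93-5p (0.93), miR-340-3p (0.89), and miR-181b-5p (0.88) for miR-26a-5p. For miR-26b-5p they were let-7g-5p, miR-384-5p, and miR-98-5p (0.91 each), and for miR-26a-2-3p miR-30e-3p (0.89), miR-30a-3p (0.89), and let-7g-5p (0.89). Of these, miR-93-5p held 52.2% GC and miR-30a-3p 50%, and the others 31.8% to 45.8%. MiR-26b-3p averaged under 10 CPM and was not compared.

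**Figure D5:**
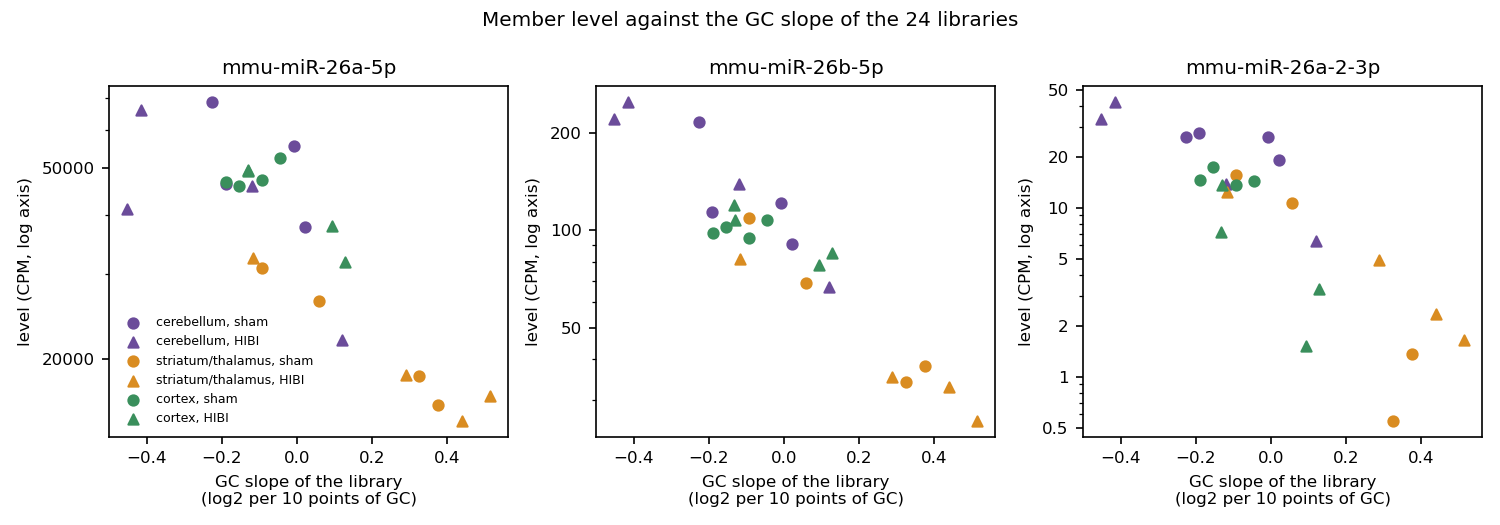
Level of the 3 members above 10 CPM on average (log axis) against the GC slope of each of the 24 libraries (log2 per 10 points of GC), with color for region and circles for sham and triangles for HIBI. The libraries with slopes of 0.29 and above, all from the striatum/thalamus, hold miR-26a-5p at 14860 to 18510 CPM.

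Other miRNAs of the REST and Ctdsp circuit were set beside the family as a list of 10, of which 8 passed the CPM minimum in every comparison. None of the 8 was called for the injury in any region or for its difference between regions. The largest injury changes were those of miR-29a-3p (log2 0.58, SE 0.29) and miR-9-3p (0.44, SE 0.41) in the cerebellum. For striatum/thalamus they were those of miR-9-3p (-0.42, SE 0.40) and of the neuron-enriched miR-124-3p (-0.40, SE 0.16, adjusted p = 0.980, edgeR). In the cortex they were miR-218-5p (-0.30, SE 0.18) and miR-212-3p (0.22, SE 0.25).

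Between regions the list split, and its called shares are read beside those of all miRNAs. In the striatum/thalamus against the cerebellum of sham pups, 3 of the 8 were lower, as the miR-26 members were: miR-218-5p (log2 -1.06, SE 0.23), miR-9-5p (-0.97, SE 0.23), and miR-9-3p (-0.89, SE 0.31). Another 3 were higher, namely the activity-regulated pair miR-212-3p (0.95, SE 0.29) and miR-132-3p (0.83, SE 0.19), and miR-29a-3p (0.66, SE 0.24). These 6 of 8 stand beside 65.2% called of all 423 miRNAs, and the median over the 8 was 0.026 beside -0.035. In HIBI pups 4 were lower, miR-9-3p (-1.80), miR-9-5p (-1.54), miR-218-5p (-1.45), and miR-135b-5p (-0.90), and 2 higher, miR-212-3p (0.96) and miR-132-3p (0.89), again 6 of 8, beside 49.6% called of all 446, with a median of -0.47 beside -0.088. In the cortex against the cerebellum 3 of 8 were higher and none lower in both groups, namely miR-29a-3p (1.60 in sham and 0.82 in HIBI pups), miR-212-3p (1.34 and 1.52), and miR-132-3p (1.29 and 1.01). Over all miRNAs 64.8% and 30.9% were called. The list medians were 0.13 and -0.13, beside -0.13 and -0.14 over all miRNAs. In the cortex against the striatum/thalamus miR-218-5p (1.15 and 0.89) and miR-29a-3p (0.94 and 0.68) were higher in both groups and miR-9-5p (0.75) in sham pups, which makes 3 and 2 of 8 beside 38.5% and 28.7% called of all miRNAs, with medians of 0.52 and 0.62 beside -0.058 and 0.015.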

How the data were processed

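Small RNA libraries were made with the NEXTFLEX Small RNA kit. Using bowtie2, the authors matched sequences to miRBase mature entries of the mouse, and they deposited 1 table per region with the unnormalized read count of each miRNA and library. Beside the counts stands the authors' edgeR comparison of HIBI with sham as deposited log2 values (fold change and average CPM) and deposited p-values with false discovery rates, none of which was used. Versions, the miRBase release, and the rule for reads matching several miRNAs are not given in the sources used here. Of 1551 entries, 20 from another species (0.000156% of counts) were left out.

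Tests were run with edgeR 4.0.16 and limma 3.58.1 under R 4.3.3, and with DESeq2 1.42.0 as an alternative. The quasi-likelihood test with TMM scaling was fitted over all miRNAs averaging above 10 CPM, before that scaling, in the libraries of each fit. SE is the size of the log2 fold change over the square root of F. Regional fits used the 12 libraries of a group, and the injury fits the 8 of a region. The same animal gave all 3 regions, and the deviations of a pup had median correlations across 435 miRNAs of 0.16, 0.27, and 0.19 between pairs of regions. No 2 libraries of a group agreed within sampling noise. P-values rest on the spread between 4 pups, and counting intervals cover counting error only. Mature GC content was known for 371 of 435 miRNAs, and the loess span was 0.75. Host introns are from GENCODE M21.

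The named miRNAs were the members, entries sharing a seed with one, other miR-26 entries, the 3 most alike of each member above 10 CPM, and those of the REST list that passed or, if none, the 2 with the largest change. Members, lists, and rules were chosen with earlier results of these data known. The code was tested on simulated data.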

Additional observations from a re-analysis of the deposited data

Results flagged for a closer look

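Of 42 groups of 4 pups examined for a library far from the others, over the levels of the 4 members and the 3 ratios, 1 held such a value. MiR-26b-5p in the striatum/thalamus of HIBI pup 5 was at 81.5 CPM, above 25.9 to 35.3 CPM in the other 3 HIBI pups. Its gap to the nearest was 0.831 of the range, just past the 95% critical value of Dixon's test, and chance flags about 1 in 20 groups. The GC slope of that library was -0.12, against 0.29 to 0.51 in the other 3.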

How the results depend on the processing

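The count of members called was 0 for the injury in each region, and for its difference between regions, under every alternative run. The share of all miRNAs called was not recorded for the alternatives. A changed count of members below is therefore not read as particular to them. Between sham cortex and cerebellum 1 member was called with the GC correction, with that correction and the block, and with the members kept whatever their level. For HIBI striatum/thalamus against cerebellum the GC correction left 1. For HIBI cortex against cerebellum RLE, upper quartile, and a minimum of 1 CPM left 0. For HIBI cortex against striatum/thalamus the minimum of 1 CPM left 0, and scaling without the members, no CPM minimum, DESeq2, all 24 libraries, the GC correction, and the replicate block each gave 2. The block, with pups as pairs, changed no other call of a member that passed the minimum when used alone, and together with the GC correction it gave 2 for HIBI striatum/thalamus against cerebellum. Leaving out 1 pup gave 1 to 3 (sham striatum/thalamus against cerebellum, and the same in HIBI), 0 to 0 (HIBI cortex against cerebellum), 0 to 2 (HIBI cortex against striatum/thalamus), 0 to 1 for ratios between HIBI and sham, and 3 to 4 for ratios between regions. No block could be fitted within a region. The cause was not tested.

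None of the values that changed sign was called. For HIBI against sham in the cerebellum these were miR-26a-2-3p (0.11) and miR-26b-3p (0.013) by library size only, and miR-26b-5p (-0.14) with the GC correction, and in the striatum/thalamus miR-26a-5p (0.037) with it. For the difference of the injury effect they were miR-26b-3p with upper quartile (0.072), the block (0.17), the GC correction (0.026), and both (0.19), and miR-26b-5p with the GC correction (0.12) and both (0.12). In HIBI pups miR-26a-5p in cortex against cerebellum turned with the GC correction (0.25; 0.29 with the block), and miR-26a-2-3p in cortex against striatum/thalamus likewise (-0.23 and -0.24). Ratios turned for miR-26b-3p to miR-26b-5p, striatum/thalamus against cerebellum, with nothing added (-0.0055), and for miR-26a-2-3p to miR-26a-5p with 5 added, HIBI against sham in the cerebellum (0.044) and cortex against striatum/thalamus (-0.42).

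Without 1 pup, HIBI against sham in the cerebellum ran from -0.39 to 0.28 (miR-26a-2-3p) and -0.38 to 0.13 (miR-26b-3p). In the striatum/thalamus it ran from -0.37 to 0.11 (miR-26a-5p), -1.10 to 0.42 (miR-26a-2-3p), and -0.33 to 0.53 (miR-26b-3p), and in the cortex from -0.15 to 0.048 (miR-26a-5p), -0.032 to 0.14 (miR-26b-5p), and -0.52 to 0.0096 (miR-26b-3p). The difference of the injury effect for miR-26b-3p ran from -0.35 to 0.42. Cortex against striatum/thalamus for miR-26b-3p ran from -0.059 to 0.82 in sham and -0.27 to 0.44 in HIBI pups, and HIBI cortex against cerebellum for miR-26a-5p from -0.12 to 0.035. Ratios ran from -0.31 to 0.16 and -0.35 to 0.83 (miR-26a-2-3p to miR-26a-5p, HIBI against sham, cerebellum and striatum/thalamus), -0.40 to 0.19 (the same, cortex against striatum/thalamus), -0.11 to 0.29 (miR-26b-3p to miR-26b-5p, striatum/thalamus against cerebellum), and -0.10 to 0.052 (miR-26b-5p to miR-26a-5p, cortex against striatum/thalamus). Depth limits the passenger arms, with as few as 1 count in a library.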
